A study of Mus musculus with 6 samples.

Results

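The T cell receptor segments are the V, J and C gene segments of the α, β, γ and δ chains. They were taken from the gene table by symbol, as every entry that starts with Trav, Trdv, Trbv, Trgv, Traj, Trdj, Trbj, Trgj, Trac, Trdc, Trbc or Trgc, which gave 266 of the 49943 genes on the 19 autosomes, X and Y. Of these, 191 carry an α name (130 V, 60 J and 1 C), 51 a β name (35 V, 14 J and 2 C), 15 a γ name (7 V, 4 J and 4 C) and 9 a δ name (6 V, 2 J and 1 C), and 40 are annotated as pseudogenes. Open chromatin was measured by ATAC-seq, in which a transposase inserts adapters into accessible DNA, in immature B cells sorted from spleen as B220+CD93+. Mice of both groups were of the Tcrd-GDL strain, a knock-in line in which cells that express the δ constant segment also make a fluorescent protein and the diphtheria toxin receptor. The DTx group (3 libraries) received diphtheria toxin as 2 intraperitoneal injections of 15 ng per g of body weight, given 48 h apart, and was analysed on day 8 after the first, and the untreated group (3 libraries) received none. The labels give no age, and do not say that the libraries of a group came from separate mice, so the spread between libraries may be technical.

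In T cells, the recombinase joins V, D and J segments into a receptor gene, and an α chain pairs with a β chain or a γ chain with a δ chain. The δ segments lie inside the α locus, so that joining an α V segment to an α J segment deletes the δ J and C segments. B cells use the same recombinase on their immunoglobulin segments, and the T cell receptor segments are the alternative set of antigen receptor genes that the B lineage carries in its genome.

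The DTx libraries held 44661, 56266 and 60811 peaks and the untreated libraries 36760, 42504 and 56503, so the lists differ in length between and within the groups. DTx replicate 1 and untreated replicate 3 had the layout of MACS2's narrow mode and the other 4 lists that of its broad mode. The −log10 q of a peak is the authors' value and its size differs between the layouts, so its percentile within the library's own list is given beside it (0 for the weakest peak and 100 for the strongest). Peaks at gene ends, no more than 1 kb from the start or stop of a gene, were present in all 6 libraries at 9 of 10 B-lineage marker genes. Over all 21887 protein-coding genes, 51.9%, 56.1% and 56.9% had one in the DTx libraries and 51.1%, 53.3% and 57.0% in the untreated libraries. Of 15 T cell marker genes, 3, 7 and 8 had one in the DTx libraries and 4, 7 and 7 in the untreated libraries. Cd3e, Cd8a, Cd8b1, Zap70, Themis, Bcl11b and Gata3 had no gene-end peak in any, though Zap70, Themis and Gata3 had peaks further inside the gene in all 6 libraries. Of 11 γδ T cell marker genes, 4 of which are constant segments described here, 2, 3 and 3 had one in the DTx libraries and 2, 2 and 2 in the untreated libraries. Blk, which B cells also use, and Maf were the members present in all 6 libraries. Sox13, a transcription factor gene of γδ T cells, had a gene-end peak in DTx replicates 2 and 3 (percentiles 37.9 and 52.0) and in no untreated library. Over the whole gene and 1 kb on either side, Sox13 had 1, 3 and 4 peaks in the DTx libraries and 1, 2 and 2 in the untreated libraries. Of 6 natural killer marker genes, 1, 2 and 3 had one in the DTx libraries and 1, 3 and 4 in the untreated libraries. What part T cells left in the sort had in the peaks below was not tested.

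Most T cell receptor segments had no peak. A peak lay within 1 kb of 24 of the 266 segments (9.02%) in at least 1 library and of 5 segments (1.88%) in all 6 libraries, and 242 segments (91.0%) had none in any list. The 5 shared ones were the V segments Trgv6, Trbv2, Trbv3 and Trbv12-1 and the α constant segment Trac. Of the 178 V segments, 13 α, 5 β and 2 γ ones had a peak in any library and no δ one did. Of the 80 J segments, 3 neighbouring α ones had a peak, and of the 8 C segments, Trac alone did. A segment without a peak is one where the caller found nothing above its threshold, and with no read totals the depth behind that absence is unknown.

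The same window around the other segments and genes was open more often. Averaged over the 6 libraries, 4.14% of T cell receptor segments had a peak, against 23.2% of 395 immunoglobulin segments and 40.2% of all genes, whose windows are wider where the gene is longer. The difference of T cell receptor minus immunoglobulin share was −19.1 percentage points ± 4.64 (SD, n = 6 libraries) and was negative in all 6 libraries. The immunoglobulin light chain segments averaged 43.5% of 180 and the heavy chain segments 6.28% of 215. By locus, the heavy chain share lay above that of the α (2.79%) and δ (0%) segments and below that of the β (7.84%) and γ (11.1%) segments. Among J segments the averages were 1.25% for T cell receptor and 56.0% for immunoglobulin, and among V segments 5.06% and 22.2%. Peaks were also sparse along the loci. The 3 locus spans held 7.58, 12.5 and 10.2 peaks per Mb in the DTx libraries and 6.82, 5.69 and 9.48 in the untreated libraries, where chromosomes 6, 13 and 14 as a whole held 16.7, 20.7 and 22.0 per Mb in the DTx libraries and 13.8, 15.3 and 20.4 in the untreated libraries. The γ span stood apart from the other spans at a mean of 27.7 peaks per Mb, against 10.99 for β and 6.03 for the joint α and δ span. In every library it lay above the value of these chromosomes, on 3 to 8 peaks per library. It held 28.7, 45.9 and 28.7 per Mb in the DTx libraries and 17.2, 17.2 and 28.7 in the untreated libraries.

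**Figure D1:**
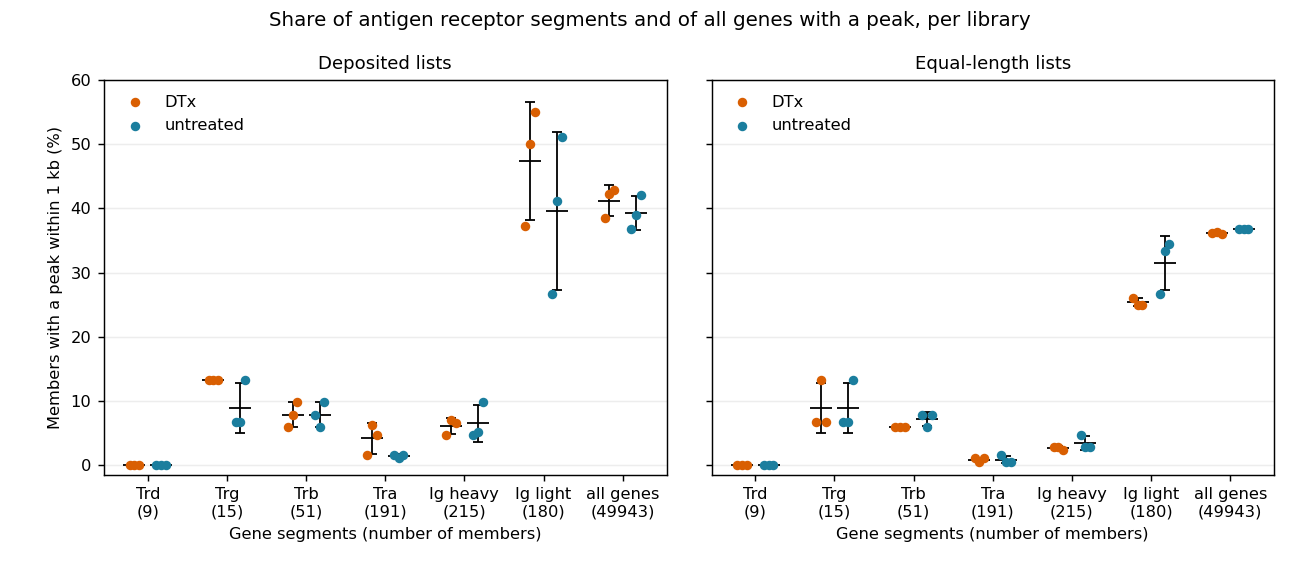
Percent of members with a peak within 1 kb in each library (points), with the mean and SD of the 3 libraries of each group (bars), for the δ, γ, β and α segments, the immunoglobulin heavy and light chain segments and all genes; the left panel uses the deposited lists and the right panel the 36760 strongest peaks of each. The T cell receptor loci stay under 15% in both panels and the δ segments at 0, the light chain segments lie far above them, and the α means of the groups lie apart in the left panel only.

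The γ locus on chromosome 13 was the most densely marked. Trgv6 (chr13:19190368-19190929), a V segment used by γδ T cells of fetal origin, had a peak in all 6 libraries in a region at chr13:19190048-19190484. Its −log10 q was 15.3, 6.13 and 5.03 in the DTx libraries and 3.47, 3.54 and 26.0 in the untreated libraries, at percentiles 30.9, 35.4 and 25.2 in the DTx lists and 22.4, 17.8 and 42.2 in the untreated lists. The peak was thus in the weaker part of every list, and the groups overlapped. Trgv7 (chr13:19178042-19178492), the V segment typical of intestinal γδ T cells, had a peak 40 bp from its lower end at chr13:19177723-19178002. Its −log10 q was 7.25, 15.0 and 13.3 in the DTx libraries and 22.4 in untreated replicate 3, with no peak in untreated replicates 1 and 2. The percentiles were 12.7, 63.6 and 55.2 in the DTx lists and 38.3 in that of untreated replicate 3. Untreated replicates 1 and 2 are the shortest lists, and among the 36760 strongest peaks of each list the Trgv7 peak was in 2 DTx libraries and 1 untreated library. Both regions (coordinates here are mm10 throughout) overlap Gm31887, a neighbouring annotated gene named here after its values were seen, so the peaks cannot be assigned to a V segment alone.

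The other 5 γ V segments, all 4 γ J segments and all 4 γ constant segments had no peak within 1 kb in any library. Between the segments lay 2 further γ regions present in all 6 libraries. The stronger, at chr13:19181986-19182691 between Trgv7 and Trgv4, reached percentiles of 56.9, 56.8 and 46.2 in the DTx lists and 56.2, 47.9 and 61.6 in the untreated lists. The other, at chr13:19219680-19220444, lay 3062 bp beyond Trgc1, in the interval between Trgc1 and Trgv3 where an enhancer of the γ1 cluster is known to lie. It reached percentiles 16.0, 49.6 and 47.1 in the DTx lists and 30.01, 35.6 and 53.0 in the untreated lists, and whether it is that enhancer was not tested. A weaker region at chr13:19204765-19204986, between Trgv5 and Trgj1, was called in all DTx libraries and in untreated replicate 3. Between that region beyond Trgc1 and Trgc2 lay 3 weak peaks, all in DTx replicate 2 alone and none above percentile 6.97.

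No δ segment had a peak in any library. This covers the V segments Trdv1, Trdv2-1, Trdv2-2, Trdv3, Trdv4 and Trdv5, the J segments Trdj1 and Trdj2, and the constant segment Trdc (chr14:54142851-54146108), whose gene carries the toxin receptor knock-in in both groups. The 10 α segments with a second, δ name, such as Trav6-7-dv9 and Trav21-dv12, had none either. Of the regions between δ segments, the one called in most libraries, at chr14:54059722-54060395 between Trdv3 and Trdv4, was 14609 bp from Trdv4. It had a −log10 q of 32.8, 25.8 and 24.6 in the DTx libraries and of 16.8 and 75.0 in untreated replicates 2 and 3, with none in untreated replicate 1, which is the shortest list.

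The β locus on chromosome 6 had 3 regions called in all 6 libraries, at Trbv2 and Trbv3, at Trbv12-1, and between Trbc2 and Trbv31. Trbv2 (chr6:41047556-41047995) and Trbv3 (chr6:41048394-41048824) shared a region at chr6:41046645-41048163 that was called in all 6 libraries. The −log10 q there was 20.1, 8.49 and 12.5 in the DTx libraries and 5.10, 5.73 and 37.1 in the untreated libraries, at percentiles 39.2, 45.8 and 53.3 in the DTx lists and 36.3, 32.2 and 51.6 in the untreated lists. No peak reached Trbv3 itself, so the region was counted for Trbv3 only through the 1 kb window. Trbv12-1 (chr6:41113567-41114067) had a peak in all 6 libraries at chr6:41112865-41113609. Its percentiles were 37.3, 49.7 and 62.4 in the DTx lists and 13.6, 32.5 and 38.8 in the untreated lists, and the 37.3 of DTx replicate 1 lay below the 38.8 of untreated replicate 3. Its close relative Trbv12-2 had a peak in 2 DTx and 2 untreated libraries, at −log10 q of 5.40 and 6.20 in DTx replicates 2 and 3 and of 2.39 and 23.9 in untreated replicates 1 and 3. The other 30 β V segments, apart from Trbv31, had none.

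The β J and C segments were without peaks. A stretch of 291 kb, from chr6:41263401 to chr6:41554181, held no peak in any library and contained 19 segments, from Trbv28 through all 14 β J segments to Trbc1 and Trbc2. It ended at a region at chr6:41554182-41555169, between Trbc2 and Trbv31, the interval in which the β enhancer is known to lie. This was the strongest region of the β locus, with −log10 q of 72.0, 25.6 and 29.5 in the DTx libraries and 14.2, 19.1 and 125 in the untreated libraries. It stood at percentiles 75.0, 76.9 and 75.7 in the DTx lists and 72.8, 70.8 and 78.3 in the untreated lists, which overlap. Trbv31 (chr6:41557693-41558371), the V segment known to lie beyond the constant segments in the opposite orientation, had a weak peak in DTx replicate 3 (percentile 20.4) and in untreated replicate 3 (percentile 23.5). Whether the region between Trbc2 and Trbv31 is the enhancer was not tested.

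**Figure D2:**
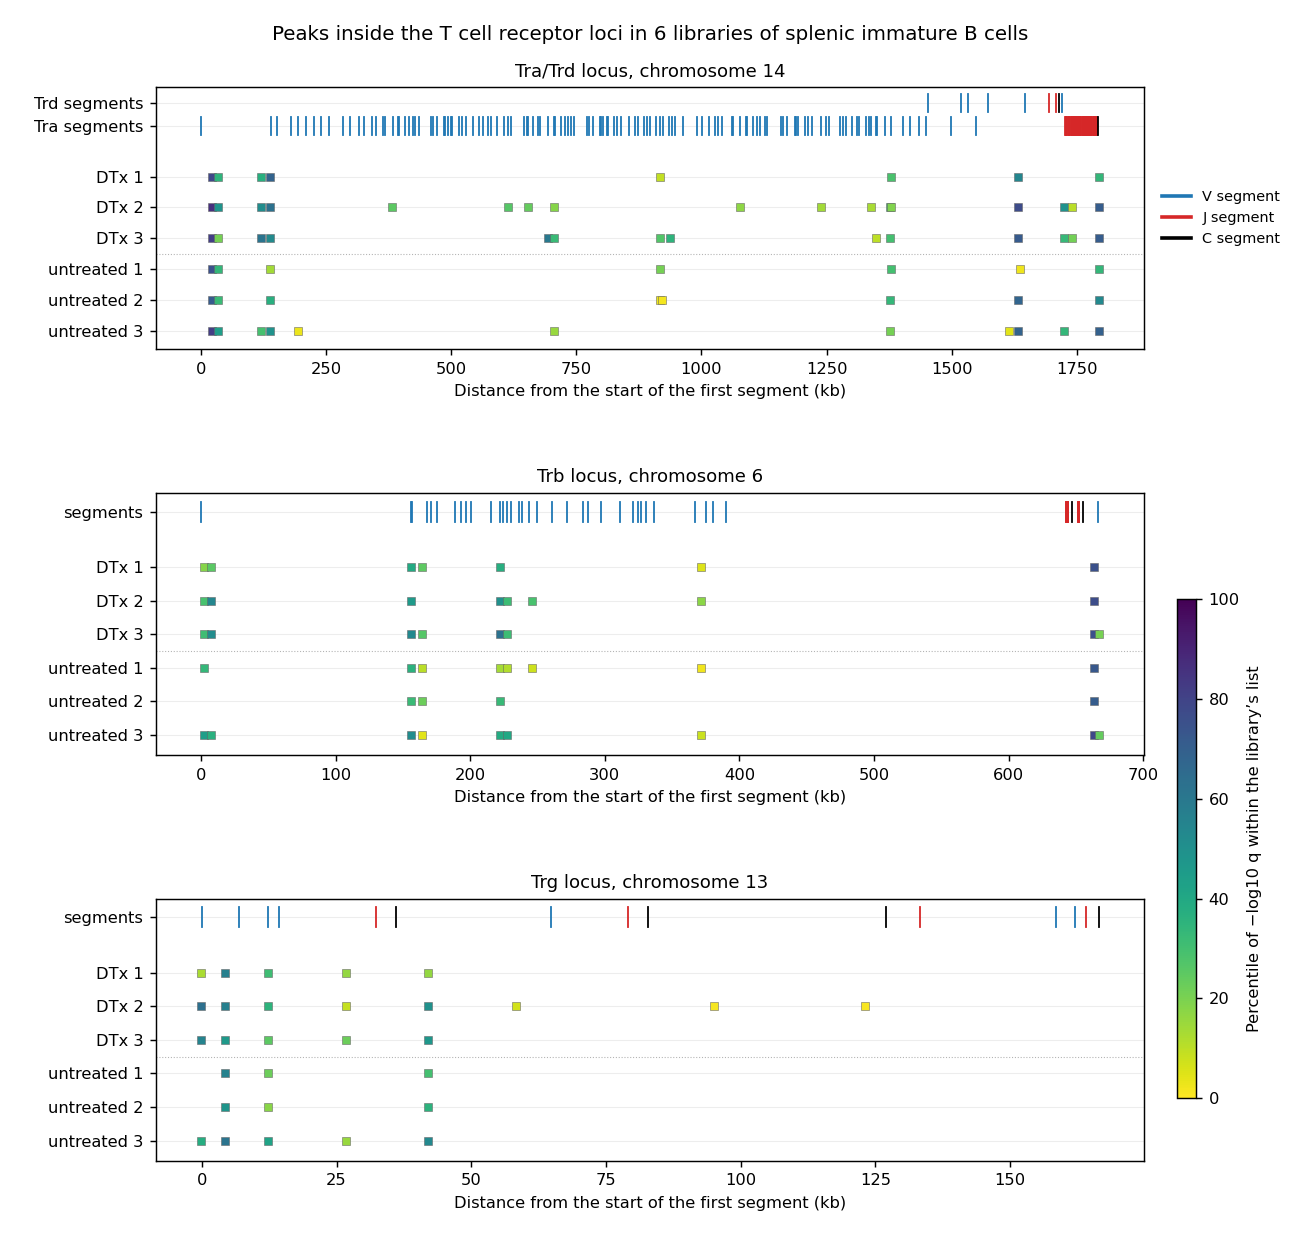
Peaks (squares, coloured by percentile of −log10 q within the library's list) along the α and δ, the β and the γ locus in the 3 DTx and the 3 untreated libraries, against the distance in kb from the first segment; ticks above mark the V, J and C segments. The β J and C cluster and the δ segments are bare in all 6 libraries. The peak within Trac and the one between Trbc2 and Trbv31 recur in every library, and many α V peaks occur in 1 library.

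The α V segments had scattered and mostly weak peaks. Of the 130, 13 had a peak in any library, none had one in all 6, and 10 had one in a single library: 6 in DTx replicate 2, 3 in DTx replicate 3 and 1 in untreated replicate 3. Trav8n-2 was called most often, at −log10 q of 5.72 and 5.35 in DTx replicates 1 and 3 and of 3.32 and 1.65 in untreated replicates 1 and 2. Trav17 had a peak at 14.2 and 3.39 in DTx replicates 1 and 2 and at 4.30 in untreated replicate 1. Trav6n-6 had one at 3.31 and 6.42 in DTx replicates 2 and 3 and at 8.51 in untreated replicate 3. For these 3 segments the libraries with a peak came from both groups, and no library had all of them.

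Several of the single-library α V peaks fell on members of 1 family, a description with no test. In the mouse the middle of the α V array is duplicated, and 74 of the α V segments carry a copy letter d or n. All 3 members of the Trav10 family had a peak in 1 library each, Trav10 and Trav10d in DTx replicate 2 and Trav10n in DTx replicate 3. The midpoints of the 3 peaks lay at −287 to −228.5 bp from the lower-coordinate end of their segments, on the same side and in nearly the same place. Trav15d-3 and Trav15-3, both pseudogenes, had a peak in DTx replicate 2. Trav3-3 had one in DTx replicate 2 and its relative Trav3-4 one in DTx replicate 3. The others were Trav8d-2 in DTx replicate 2, a copy of Trav8n-2, Trav13n-4 in DTx replicate 3 and Trav5-1 in untreated replicate 3. How reads that fit several copies were placed is not given in the sources used here, so which copy a peak belongs to is uncertain. The Trav10n peak was the strongest of them, at percentile 59.5, and the Trav5-1 peak the weakest, at percentile 2.84.

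Most V segments with a peak had it on the same side. For 17 of the 20 V segments, the midpoint of every peak within 1 kb lay below the lower-coordinate end of the segment, which is the side of the V promoter for segments read in the direction of rising coordinates. The exceptions were Trbv31, Trav13n-4 and Trav15d-3. The distance varied, with midpoints from −1292 bp, for the Trbv3 window, to 1854.5 bp, for Trav13n-4. Over all kinds of segment there were 66 pairs of a segment and a peak from 56 distinct peaks, each site counted once per library, with a median distance of 34.5 bp, and in 27 pairs the peak reached into the segment. The gene table gives no strand, so the orientation of each segment was not checked.

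**Figure D3:**
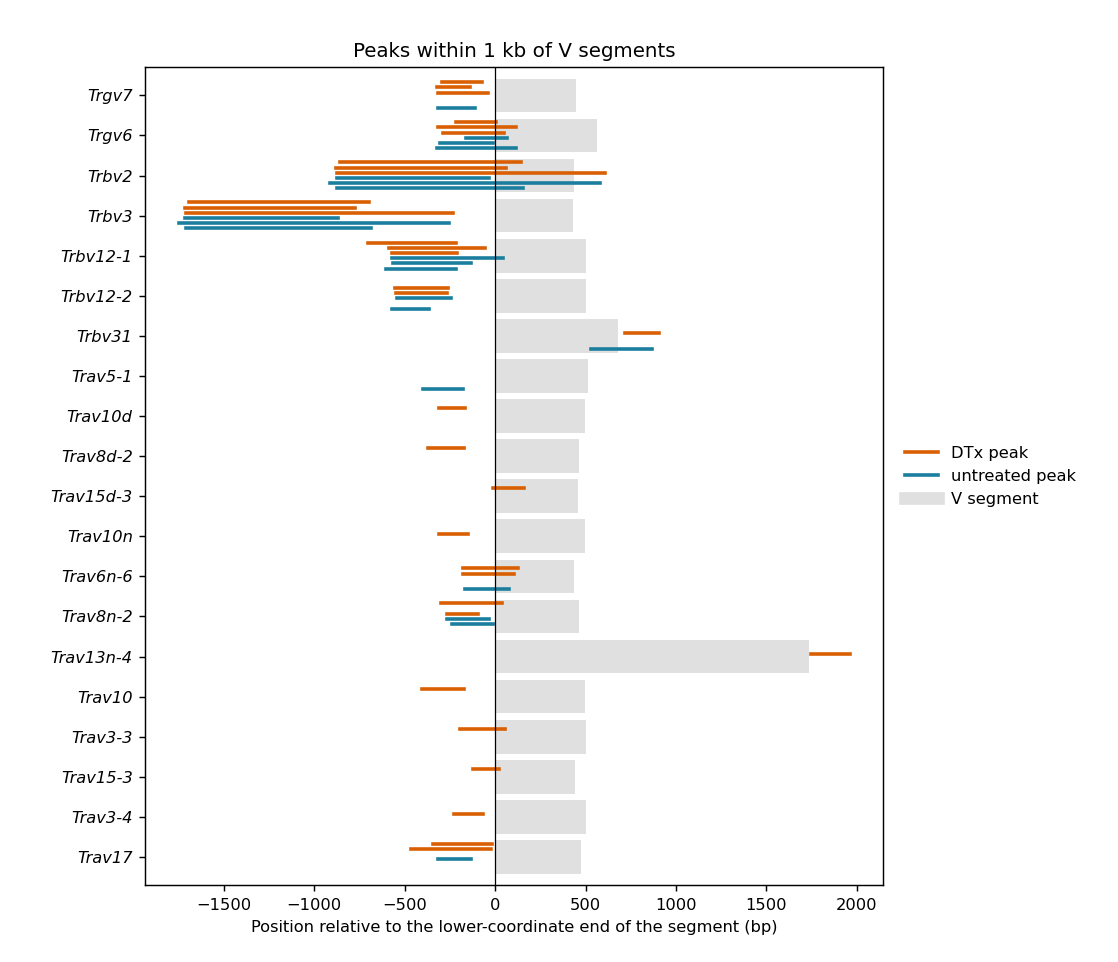
Extent of each peak (lines, DTx libraries above untreated libraries within a row) relative to the lower-coordinate end of its V segment (0 bp, grey box for the segment), for the 20 V segments with a peak within 1 kb. Most lines lie left of 0 or across it, and those of Trbv31 and Trav13n-4 lie at the other end of the segment.

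Among the α J segments, a small region at chr14:54168578-54168884 lay across Traj49 and within 1 kb of Traj50 and Traj48. It was called in DTx replicates 2 and 3, the longest DTx lists, at −log10 q of 2.23 and 4.35 and percentiles 10.3 and 21.4, and in no untreated library. In DTx replicate 1 it was absent too, and no equal-length list held it. The other 57 α J segments had no peak. A region 1731 bp before Traj61, at chr14:54152763-54153274, was called in DTx replicates 2 and 3 and in untreated replicate 3, at percentiles 49.6 and 33.1 in those DTx lists and 33.6 in that of untreated replicate 3.

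Trac (chr14:54220521-54224198), the α constant segment, was the only constant segment with a peak. The region, at chr14:54222274-54222737, lies within the gene. Its −log10 q was 16.8, 19.7 and 23.8 in the DTx libraries and 4.78, 10.5 and 78.6 in the untreated libraries, with percentiles of 33.8, 70.8 and 70.8 in the DTx lists and 33.8, 52.9 and 69.5 in the untreated lists. The lowest percentile was 33.8 in both groups, and the groups overlapped. Trdc, Trbc1, Trbc2, Trgc1, Trgc2, Trgc3 and Trgc4 had none in any of the 6 lists.

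Stronger regions followed beyond Trac, toward Dad1, which encodes a subunit of the oligosaccharyltransferase and is expressed broadly. The first, at chr14:54227198-54228713 and 3000 bp from Trac, had −log10 q of 180, 57.2 and 111 in the DTx libraries and 25.3, 55.1 and 366 in the untreated libraries. It stood at percentiles between 87.2 and 96.2 in all 6 lists, above every region inside the loci. At 6584 and 8738 bp from Trac lay 2 further regions, with percentiles from 50.8 to 83.1 and from 78.2 to 92.2 over the 6 lists. The α enhancer is known to lie in this interval, and whether any of the 3 regions is that enhancer was not tested.

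The region over the start of Dad1 was the strongest within 30 kb of any locus span. Its −log10 q was 346, 144 and 192 in the DTx libraries and 51.6, 100 and 564 in the untreated libraries, at percentiles between 97.3 and 99.2. The same region took in the lower-coordinate end of Abhd4, the next gene, at chr14:54254129. Peaks covered all 250 bases upstream of Dad1 in every library, and those from chr14:54254129 upward lie within Abhd4. None of the 266 segments has an entry in the RefSeq promoter table, so the sequence of this flanking promoter is shown as that of the open region nearest to a constant segment for which the table holds one. It is the 250 bases before the gene on the minus strand of GRCm38.p6, chr14:54253930-54254179, from RefSeq, written 5′ to 3′, and the capitals mark matches to the motif CCAAT on either strand (CCAAT and its reverse complement ATTGG, which overlap here).

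Dad1 upstream: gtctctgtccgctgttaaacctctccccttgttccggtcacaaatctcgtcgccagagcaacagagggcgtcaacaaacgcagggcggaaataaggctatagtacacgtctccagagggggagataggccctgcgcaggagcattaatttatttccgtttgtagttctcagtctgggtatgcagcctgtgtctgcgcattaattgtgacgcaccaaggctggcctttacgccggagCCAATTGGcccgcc

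The motif has 2 matches in these bases, 1 on each strand and sharing bases. It is present in the 250 upstream bases of 33.8% of the 32851 promoters of the table (11120), and a match describes the letters only.

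**Figure D4:**
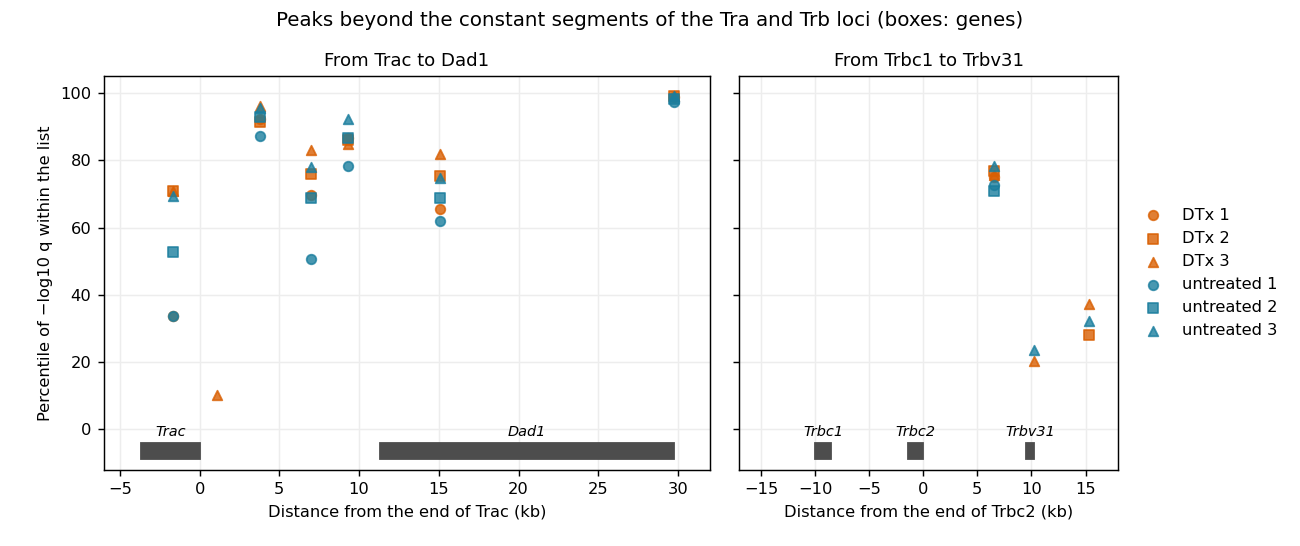
Percentile of −log10 q of each peak within its library's list (orange DTx, blue untreated) against distance in kb from the end of Trac, up to Dad1 (left), and from the end of Trbc2, past Trbv31 (right); boxes below mark the genes. Every library has the peaks that lie 3000 bp or more beyond Trac and the peak between Trbc2 and Trbv31, and the groups overlap at each of these. A weak peak 1016 bp beyond Trac is in DTx replicate 3 alone, at percentile 10.2.

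The comparison of γδ segments between the DTx and untreated libraries rested on Trgv6 and Trgv7 alone. Of the 24 γ and δ segments, 2, 2 and 2 had a peak in the DTx libraries and 1, 1 and 2 in the untreated libraries, or 2.00 ± 0 and 1.33 ± 0.58 (SD, n = 3 each). The difference of 0.67 segments came from Trgv7. The groups shared a value, that of untreated replicate 3, and the difference was 0 among equal-length lists. With only peaks of −log10 q of at least 5 it was 1.33, a threshold that bears unequally on the 2 list layouts. Within the broad-mode lists the means were 2 in the DTx and 1 in the untreated libraries, and the narrow-mode lists had 2 each. For the bases covered in the Trgv7 region the exact two-sided permutation p was 0.2, and for the Trgv6 region 1. With 3 libraries against 3 this test cannot give less than 0.1, so no single region could pass 0.05.

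Over all T cell receptor segments, 8, 18 and 16 had a peak in the DTx libraries and 8, 6 and 10 in the untreated libraries, or 14 ± 5.29 and 8 ± 2 (SD, n = 3 each). The groups overlapped, since DTx replicate 1 had as many as untreated replicate 1 and fewer than untreated replicate 3. The α segments made up most of the difference, with 3, 12 and 9 in the DTx libraries and 3, 2 and 3 in the untreated libraries. The β segments numbered 3, 4 and 5 in the DTx libraries and 4, 3 and 5 in the untreated libraries. Among equal-length lists the total was 6, 6 and 6 in the DTx libraries and 8, 5 and 7 in the untreated libraries, so the DTx mean was then lower. The narrow-mode lists had 8 in the DTx library and 10 in the untreated library, against means of 17 and 7 in the broad-mode DTx and untreated libraries.

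A segment's library count was higher in the DTx group for 15 of 266 segments (5.64%), where 6.31% of all genes were so, and lower for 1 segment (0.376%), where 1.74% of all genes were so. Since 91.0% of segments had no peak, both shares are small. Of the 24 segments with a peak in any library, 15 (62.5%) were in more DTx libraries, where 13.9% of all genes with any peak were so, and 1 (4.17%) in more untreated libraries, where 3.84% were so. Of those 15, 6 had their peak in DTx replicate 2 alone and 3 in DTx replicate 3 alone, and 3 are the J segments that share a region. A segment or gene with a peak in all 6 libraries cannot count higher in either group. These were 5 of the 24 segments but 17452 of the 22624 genes with any peak, so 62.5% and 13.9% do not compare like with like. Among equal-length lists 2 segments were in more DTx and 3 in more untreated libraries. No segment had a peak in 3 of 3 DTx and 0 of 3 untreated libraries, which 0.132% of all genes did, and none had the reverse, which 0.01% of all genes did.

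**Figure D5:**
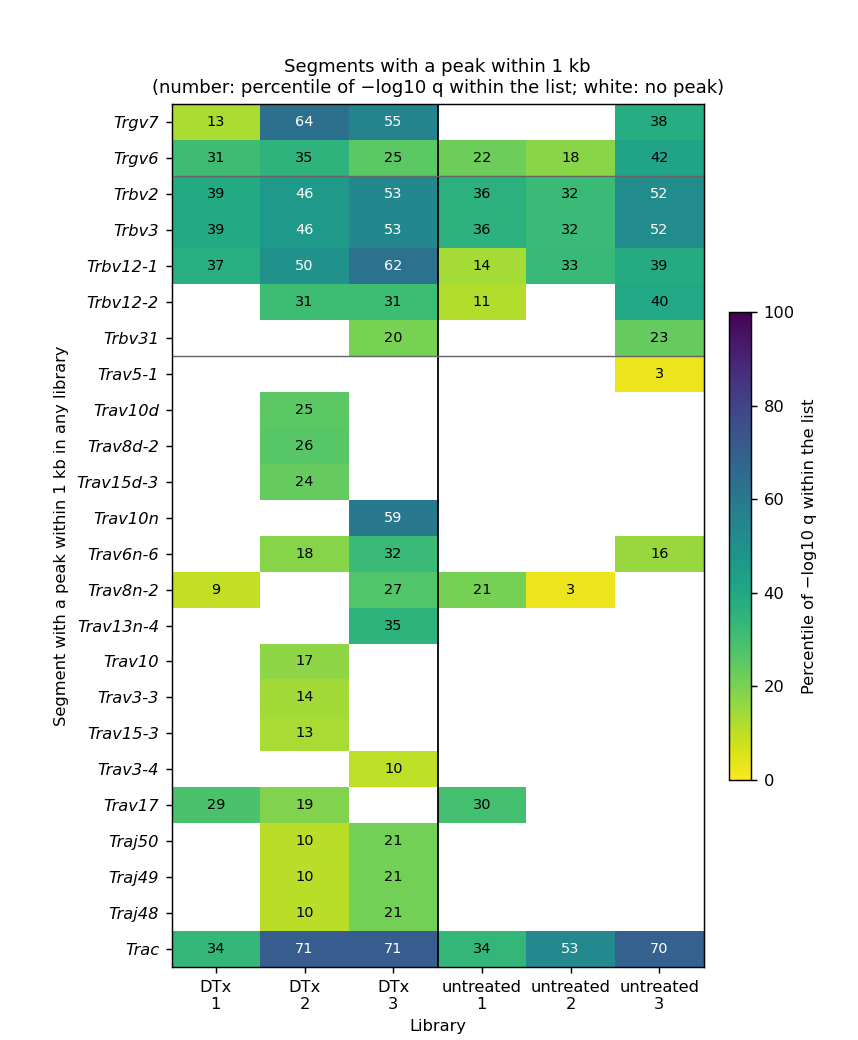
The 24 segments with a peak within 1 kb in at least 1 library (rows, by locus) in the 3 DTx and then the 3 untreated libraries (columns); colour and number give the percentile of −log10 q of the nearest peak within the list, and white means no peak. Trgv6, Trbv2, Trbv3, Trbv12-1 and Trac fill all 6 columns, and most α V rows have a single filled cell.

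By region, 43 merged regions lay inside the locus spans. Of these, 10 (23.3%) were called in all 6 libraries and 16 (37.2%) in a single library, where 44.1% and 18.2% of all 70174 regions were. The α and δ span held 25 of them with 13 in a single library, the β span 10 with none, and the γ span 8 with 3. The 10 shared regions had a median percentile of 45.2, against 66.4 for all regions called in 6 libraries. More DTx than untreated libraries held 22 of the 43 (51.2%, where 36.4% of all regions were so), and more untreated than DTx libraries held 5 (11.6%, where 8.8% of all regions were so). A region called in all 6 libraries cannot count higher in either group. Such regions were 23.3% of the 43 but 44.1% of all regions, so these shares do not compare like with like. No region was specific to the DTx group, that is, present in each of its 3 lists and no untreated list, where 0.705% of all regions were so. No region was specific to the untreated group, where 0.0242% of all regions were so. Among equal-length lists 1 region, 19020 bp from Trav2, was specific to the DTx group (0.367% of all regions of those lists) and none to the untreated group (0.578%).

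The bases that peaks covered were higher in every DTx library for 1 of the 43 regions, where 3.05% of all regions were so, and lower in every DTx library for 0, where 0.755% were so. That region, at chr14:52565678-52566099 and 1194 bp from Trav2, had 418, 408 and 395 covered bases in the DTx libraries and 204, 236 and 285 in the untreated libraries. The groups did not overlap. Its exact permutation p was 0.1, the smallest possible here, and 1 after Benjamini-Hochberg adjustment over all 70174 regions.

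Some genes of the T cell receptor complex and its signalling had gene-end peaks, in numbers near the shares of all protein-coding genes given above, so these counts say nothing particular about the list. Peaks at the ends of 9, 13 and 14 of 20 such genes were called in the DTx libraries and of 8, 12 and 13 in the untreated libraries (12 ± 2.65 and 11 ± 2.65, SD, n = 3 each), and the groups overlapped. Of the 20, 7 were present in all 6 libraries, as were 49.2% of protein-coding genes. These were Cd3d and Cd247, which encode receptor-associated signalling chains, Fyn, a Src family kinase, and Lat, the membrane adaptor. The others were Cd28, the costimulatory receptor, and Cd5 and Cd2, surface receptors that are not confined to T cells. Cd3d stood at percentiles 94.7, 97.4 and 96.5 in the DTx lists and 87.4, 94.2 and 97.5 in the untreated lists, while its neighbour Cd3e had no peak. Ptcra, the pre-T α chain, Trat1, an adaptor, Zap70, the kinase that binds the CD3 chains, and the co-receptor genes Cd8a and Cd8b1 also had no gene-end peak. Zap70 had peaks further inside the gene in all 6 libraries.

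The library count was higher in the DTx group for Cd3g, Lcp2 and Cd6, 3 of the 20, where 5.02% of protein-coding genes were so, and lower for none, where 2.36% were so. Cd3g, a CD3 chain, had a peak in DTx replicate 3 alone, at percentile 18. Lcp2, which encodes the adaptor SLP-76, and Cd6, a surface receptor, had no gene-end peak in untreated replicate 1, the shortest list. Lck, a kinase of the pathway, and Cd4 and Thy1, surface markers of T cells, each had a gene-end peak in 4 libraries, 2 DTx and 2 untreated. None of the 20 was specific to the DTx group, as 0.0366% of protein-coding genes were, or to the untreated group, as 0.00457% were.

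The recombinase genes had few peaks at their ends and more within them. Rag1 had a weak gene-end peak in DTx replicate 2 (percentile 9.44), Rag2 in DTx replicate 3 and untreated replicate 3 (percentiles 5.92 and 5.08), and Dntt, which encodes the enzyme that adds untemplated bases at the joins, had none. Over the whole gene and 1 kb on either side, Dntt had 3 peaks in each of the 6 libraries, Rag2 had 1, 1 and 2 in the DTx libraries and 1, 1 and 2 in the untreated libraries, and Rag1 had 0, 2 and 1 in the DTx libraries and 1, 1 and 1 in the untreated libraries. Of 13 genes beside or inside the loci, Dad1, Abhd4 and Stard3nl had peaks above percentile 95 in all 6 libraries, and Ephb6, a receptor beyond the β locus, had weaker ones in all 6, at percentiles 38.5, 14.7 and 20.1 in the DTx lists and 19.5, 5.91 and 27.1 in the untreated lists. Epdr1 had a peak in DTx replicate 2 alone. The trypsinogen-type genes inside the β locus, Prss1, Prss2, Prss3, Try4, Try5 and Try10, and Moxd2 and Amph had none.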

How the data were processed

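Per the submitters' processing notes, reads were trimmed with Trim Galore 0.4.3 and processed with Bowtie2 2.3.2 and MACS2 2.1.1 on mm10. Not given in the sources used here are Tn5 shifting, duplicate removal, placement of multi-mapping reads and read totals, so depth is unknown. The authors deposited 1 peak list per library, called on that library alone. Per the file headers it gives each peak's length, pileup (coverage signal) and fold enrichment (a ratio). The 2 columns with damaged headers were read from their order and values as the deposited −log10 p-value and −log10 q-value. These are the authors' values, and peaks were ranked or selected by them within 1 list at a time. The layout of 4 lists is that of MACS2's broad mode and of 2 lists that of its narrow mode, 1 of them in each group.

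Mitochondrial peaks, 2 per list, were dropped. A segment had a peak where one lay within 1 kb of it, and overlapping peaks of the 6 lists were merged into regions, shared where at least 1 bp overlapped. Because the lists differ in length, equal-length lists held each library's 36760 strongest peaks, the length of the shortest. Genes came from the RefSeq table of GRCm38.p6, the same build as mm10, which has no strand and no exons. Counts per library are given as mean and SD without a p. Covered bases of single regions were compared by an exact two-sided permutation test over 20 relabellings, with Benjamini-Hochberg adjustment over all regions. Scripts were tested on simulated data and used pandas 2.3.3, NumPy 2.4.6, SciPy 1.17.1 and Matplotlib 3.10.9 under Python 3.11.15. Named were the constant segments, each region within 1 kb of a segment, group-only segments, 13 neighbouring genes, 3 recombinase genes and 20 receptor complex and signalling genes, and other regions inside or beside the loci were chosen after their values were seen. The members and lists were chosen with earlier results of these data known. No lists were duplicates of each other, with 10 to 83 peaks of identical ends between any 2 libraries.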

Additional observations from a re-analysis of the deposited data

How the results depend on the processing

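Values here are differences of DTx minus untreated unless said otherwise. Of 162 alternatives over 12 results, 132 were counted as the same and 30 as moved, and the cause was not tested. The limit was the spread between replicates or, for counts of group-only regions, 1.5 times. Values counted as the same could still change. The receptor complex genes went from 1 to −0.667 with equal-length lists, and all segments from 6 to 10 with broad-mode lists and to 2.33 at a distance of 0 bp. Equal-length lists changed all segments from 6 to −0.667, αβ from 5.33 to −0.667, α from 5.33 to 0, γδ and γ from 0.667 to 0 and regions inside the loci from 7.33 to −1, and gave 1 DTx-only region in place of 0. The narrow-mode pair (no replicates) gave −2 for all, αβ and β segments, 0 for γδ, γ and α, −5 for regions, −4 for the receptor complex genes (as reported, 1), and 2 DTx-only and 7 untreated-only regions. Broad-mode lists gave 1 for β (as reported, 0) and 7 DTx-only regions. A 5 kb window gave 12 for all segments, 11.7 for αβ and α, 0.333 for δ and 0 for γ. Peaks of −log10 q of at least 5 gave 1.33 for γδ and γ. The T cell receptor minus immunoglobulin share, −19.1 percentage points, was −12.2 with equal-length lists and −13.5 with −log10 q of at least 5.

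Leaving out 1 library at a time, ranges were 4 to 9 for all segments, 3.33 to 8.33 for αβ, 0.5 to 1 for γδ and γ, 3.33 to 7.83 for α, −0.5 to 0.5 for β, 0 to 0 for δ, 4.17 to 10.7 for regions, −0.5 to 2.5 for complex genes, −20.6 to −18.0 points for the share, and 0 to 0 untreated-only regions. DTx-only regions ranged from 0 to 4, with 4 once untreated replicate 3 was left out and 1 once DTx replicate 1 was. The replicate block, the mean difference within replicate numbers, equals the difference of means by arithmetic here, so it could not move a value. Its alternatives are nevertheless among those counted as the same. It adds only the SD of the 3 pairs (6 ± 6 for all segments and 0.667 ± 0.58 for γδ). It was not run for group-only regions or for the share. Whether the numbers pair the libraries is not settled. Deviations of same-numbered libraries correlated at 0.204, −0.0217 and 0.147 over 70174 regions, and those of differently numbered libraries at −0.238 to 0.103. Peak lists show nothing below the caller's threshold.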

Other observations

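The strongest region inside the loci lay far from any segment. At chr14:52450550-52451575 (mm10), between Trav1 and Trav2 and 21674 bp from Trav1, a region was called in all 6 libraries. Its −log10 q was 83.2, 41.3 and 40.4 in the DTx libraries and 15.4, 19.7 and 151 in the untreated libraries, at percentiles 78.3, 86.2 and 82.0 in the DTx lists and 75.0, 71.7 and 81.7 in the untreated lists, and the groups overlapped. It overlaps Olfr1509, an olfactory receptor gene, which was named after its values were seen. A region between Trav1 and Trav2 at chr14:52547792-52548273 was called in 3 DTx libraries and in untreated replicate 3, at percentiles 36.8, 51.5 and 61.5 in the DTx lists and 29.3 in the untreated one. It was in 3 DTx and 0 untreated equal-length lists, as were 0.367% of all regions of those lists, while 0.578% were in 3 untreated and 0 DTx ones.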
